A study of Rattus norvegicus with 6 samples.

Results

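The genes described here form the core of the mitochondrial route to apoptosis. They are the effectors Bax and Bak1, the BH3-only genes Bad and Bid, the survival genes Bcl2l1 and Mcl1, and the genes of caspase activation Diablo, Apaf1 and Casp9. They were listed by symbol, 9 in all, and found by it in the gene table. The gene table holds 24360 rows, and 8 of the 9 symbols were matched in it. Mcl1, a survival gene, was not analysed here. Of the 8 matched genes, 8 passed the filter on low counts and were tested.

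RNA was sequenced from H9c2, a cell line from embryonic rat heart that divides as a myoblast. The Rb2 group is 3 samples given ginsenoside Rb2, a saponin of ginseng, and the Ctrl group is 3 samples whose treatment is labelled NC. All 6 samples carry the genotype label WT. The protocol text, the same for every sample, gives 48 h of Rb2, then 4 to 6 h without oxygen and glucose, then 12 h with both restored. It does not say whether the Ctrl samples went through the deprivation, so the contrast may include more than Rb2. No label says whether each replicate came from its own culture, so p-values speak only to how far these samples scatter, and that scatter may be technical. In bulk RNA, fewer cells of a kind and less RNA per cell cannot be told apart.

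Libraries held 5193077 to 5570308 counts in Rb2 and 5787587 to 8793390 counts in Ctrl, the largest being Ctrl replicate 1. The mean transcript length per count was 1244 to 1255 bases in Rb2 and 1172 to 1228 bases in Ctrl. Why these lengths differed between the groups was not tested. The labelled cell type is embryonic cardiomyocyte. Levels are given as CPM, a gene's counts relative to its library's total, scaled by the TMM factor of the library. Of 13 cardiac muscle markers, 11 were matched. Their summed level was 54.8 to 64.0 CPM in Rb2 and 56.6 to 75.5 CPM in Ctrl. Most of that sum came from Tnnt2, cardiac troponin T, with 45.3 CPM in Rb2 and 52.9 CPM in Ctrl on average. Actc1 and Myl3, which encode contractile proteins of heart muscle, were at 0 in all 6 libraries. The cardiac myosin gene Myh6 averaged 1.55 CPM in Rb2 and 1.09 CPM in Ctrl, so these genes of a contracting cardiomyocyte were at or near 0. The summed level was 382 to 416 CPM in Rb2 and 428 to 529 CPM in Ctrl for skeletal muscle markers. Most of this came from Tnnc1, with 354 CPM in Rb2 and 432 CPM in Ctrl on average, lower in every Rb2 library than in any Ctrl library. The next highest was Myod1, with 15.8 CPM in Rb2 and 12.4 CPM in Ctrl. For smooth muscle and fibroblast markers the summed level was 6748 to 7195 CPM in Rb2 and 6785 to 7194 CPM in Ctrl. Within that sum Acta2 and Tagln were lower in every Rb2 library than in any Ctrl library, and Col3a1 was higher. Their means were 909, 655 and 1188 CPM in Rb2, and 1133, 801 and 895 CPM in Ctrl. The other tested genes of that list overlapped between the groups, and Dcn was at 0 in all 6 libraries. Only 2 of 5 endothelial and 3 of 5 leukocyte markers were matched, and their sums stayed at or under 2.39 CPM in every library. Of 5 epithelial markers 4 were matched, with sums of 33.9 to 39.9 CPM in Rb2 and 32.2 to 41.9 CPM in Ctrl. All of that came from Krt8, as Cdh1, Epcam and Krt18 were at 0. None of the markers tested passed the threshold between the groups.

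In the mitochondrial pathway, Bax and Bak proteins form pores in the outer mitochondrial membrane when they are set free from survival proteins such as Bcl-xL, the product of Bcl2l1, and Mcl-1. BH3-only proteins such as Bad and Bid shift that balance towards pore opening. Cytochrome c leaves through the pores and joins Apaf-1 and caspase-9 in the apoptosome, and Smac, the product of Diablo, leaves with it and lifts the block that inhibitor of apoptosis proteins place on caspases. In heart muscle this route is known for its part in cell death after loss and return of oxygen. Much of its control acts on the proteins, by cleavage, phosphorylation and movement, which counts of RNA do not measure.

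The question put to these genes was whether their RNA levels differed between Rb2 and Ctrl. None of the 8 genes passed the threshold, an adjusted p under 0.05 in edgeR's quasi-likelihood test with Benjamini-Hochberg adjustment over 11551 genes. Across all genes tested, 2.7% passed, 1.9% higher and 0.805% lower in Rb2, so a count of 0 among 8 genes is close to that background. At an unadjusted p under 0.05, 1 of the 8 stood out, Bax, and 20% of all genes did so. With DESeq2 none of the 8 had an unadjusted p under 0.05 or an adjusted p under the threshold. The median log2 fold change, Rb2 over Ctrl, was 0.041 over the 8 genes and -0.016 over all genes tested. For 4 genes the fold change was above 0 and for 4 it was below 0. As above, CPM values in the text that follows are scaled by the TMM factor of each library, and intervals are 95% intervals of the edgeR fold change.

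**Figure D1:**
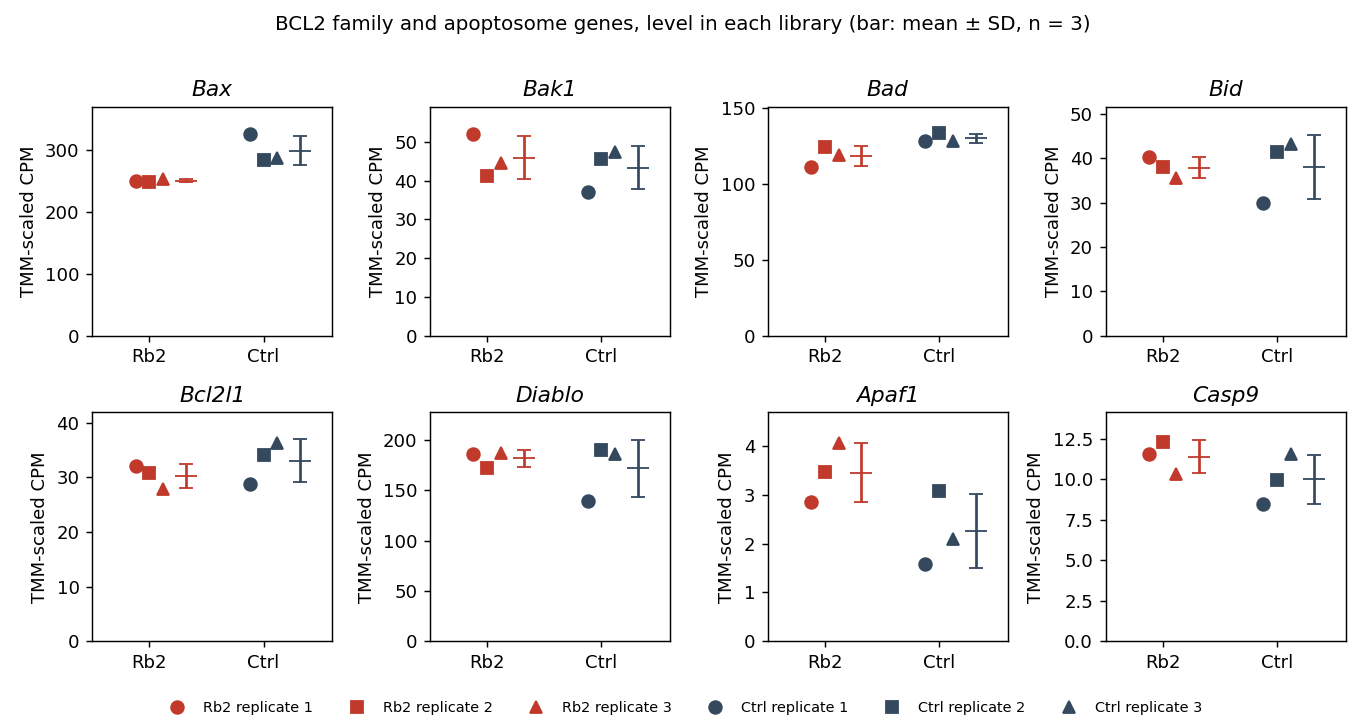
TMM-scaled CPM (vertical axes, from 0) of the 8 genes in each library, Rb2 left of Ctrl, with the mean and SD of each group beside its 3 points. The 3 Rb2 points of Bax lie close together at 248 to 253 CPM, under the 3 Ctrl points at 284 to 327 CPM; Bad is the only other gene whose groups do not overlap.

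Bax, which encodes the pore-forming effector that moves from the cytosol to mitochondria, had 249.7, 248 and 253 CPM in Rb2 replicates 1 to 3, against 327, 284 and 288 CPM in Ctrl replicates 1 to 3. The Rb2 libraries were nearly level with each other, and every one lay under every Ctrl library. The means were 250.4 ± 2.47 CPM in Rb2 and 299.6 ± 23.6 CPM in Ctrl (SD, n = 3 each). This gave a log2 fold change of -0.26 (SE 0.089, interval -0.46 to -0.061), with an edgeR p of 0.0155 and an adjusted p of 0.140. It ranked 1278 by p among the 11551 genes tested. The highest Ctrl value was that of replicate 1. Without that library the log2 fold change of Bax was -0.17 and the edgeR adjusted p was 0.102. The adjusted p of Bax lay between 0.0570 and 0.420 over 19 alternatives, and its fold change was below 0 in each of them.

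Bak1, which encodes the effector that resides on mitochondria, did not pass the threshold, like Bax. It had 52.0, 41.1 and 44.5 CPM in Rb2, against 37.0, 45.5 and 47.3 CPM in Ctrl. The highest value was in Rb2 replicate 1 and the lowest in Ctrl replicate 1, and the groups overlapped. Bak1 thus had a log2 fold change of 0.086 (interval -0.24 to 0.41; edgeR adjusted p = 0.791). Without Ctrl replicate 1 it was -0.0022, so the sign of this small value rested on single libraries.

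Bad, which encodes a BH3-only protein that binds Bcl-xL and is held by 14-3-3 proteins when phosphorylated, had 111, 124 and 119 CPM in Rb2, against 128, 133 and 128 CPM in Ctrl. Every Rb2 library lay under every Ctrl library, although Rb2 replicate 2 came close to the Ctrl values. The means were 118 ± 6.56 CPM in Rb2 and 129.8 ± 3.12 CPM in Ctrl (SD, n = 3 each). The log2 fold change was -0.14 (interval -0.35 to 0.071; edgeR adjusted p = 0.447), which did not pass the threshold. Bax and Bad were thus the 2 genes of 8 whose groups did not overlap, both lower in Rb2. Groups did not overlap in 27.2% of all genes tested, and in 12.2% the Rb2 libraries were the lower ones, so 2 of 8 is near the background.

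Bid, which encodes the BH3-only protein that caspase-8 cuts to link death receptors with mitochondria, had 40.2, 38.1 and 35.5 CPM in Rb2, against 29.8, 41.4 and 43.2 CPM in Ctrl. The Rb2 values all fell inside the Ctrl range. The group means were almost the same, 38.0 ± 2.36 CPM in Rb2 and 38.1 ± 7.23 CPM in Ctrl (SD, n = 3 each). Its log2 fold change was -0.0018 (interval -0.36 to 0.36; edgeR adjusted p = 0.997), and its sign changed in 11 of 19 alternatives.

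Bcl2l1, the survival gene that encodes Bcl-xL, had 32.0, 30.7 and 27.8 CPM in Rb2, against 28.8, 34.0 and 36.3 CPM in Ctrl. The lowest value was in Rb2 replicate 3, and Ctrl replicate 1 lay among the Rb2 values. The log2 fold change was -0.13 (interval -0.45 to 0.20; edgeR adjusted p = 0.665). It was below 0 in each of 19 alternatives without passing the threshold in any.

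Diablo, which encodes the Smac protein released from mitochondria, had 187, 172 and 187 CPM in Rb2, against 139, 190.0 and 186 CPM in Ctrl. Ctrl replicate 1 stood low, and the other 5 libraries were close to each other. Diablo had a log2 fold change of 0.084 (interval -0.20 to 0.36; edgeR adjusted p = 0.756), and without Ctrl replicate 1 it was -0.031.

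Apaf1, the scaffold of the apoptosome, was the scarcest of the 8 genes. It had 16, 20 and 22 counts in Rb2, against 13, 17 and 12 counts in Ctrl. Scaled for depth these were 2.85, 3.47 and 4.05 CPM in Rb2, against 1.58, 3.07 and 2.10 CPM in Ctrl. The groups overlapped by 1 library, since Ctrl replicate 2 was above Rb2 replicate 1. The log2 fold change was 0.65 (SE 0.32, interval -0.073 to 1.4), the largest in size of the 8 genes, with an edgeR p of 0.0729 and an adjusted p of 0.296. As a fold the interval ran from 0.951 to 2.58, which is wide and does not show that Apaf1 was the same in both groups. With an offset for gene length the log2 fold change of Apaf1 was 0.51 (edgeR adjusted p = 0.441).

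Casp9, the initiator caspase of the apoptosome, had 65, 71 and 56 counts in Rb2, against 70, 55 and 66 counts in Ctrl. In depth-scaled values it had 11.6, 12.3 and 10.3 CPM in Rb2, against 8.49, 9.94 and 11.5 CPM in Ctrl. Ctrl replicate 3 was inside the Rb2 range. Its log2 fold change was 0.20 (interval -0.24 to 0.63; edgeR adjusted p = 0.613). For the 7 genes other than Apaf1, the intervals together ran from a fold of 0.728 to one of 1.55, so larger changes lie outside them.

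**Figure D2:**
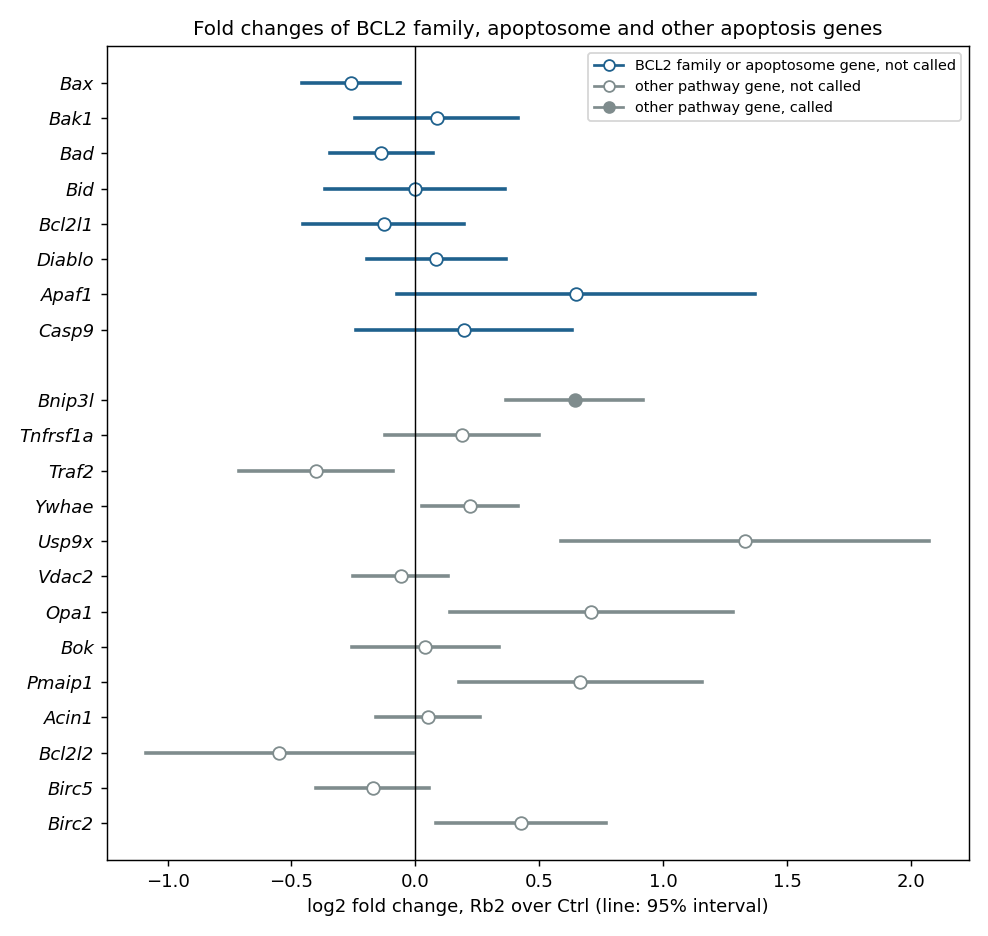
Log2 fold change of Rb2 over Ctrl (horizontal axis) with its 95% interval (line) for the 8 genes, above other genes of apoptosis named in the text. Only Bnip3l, drawn filled, passed the threshold; of the 8 genes, the interval of Bax alone does not reach 0.

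Most of the 8 genes shared 1 feature of the libraries. Ctrl replicate 1 was the lowest of the 6 libraries for Bak1, Bid, Casp9, Apaf1 and Diablo, and the highest for Bax. It was thus at an extreme for 6 of the 8 genes. Over all genes tested, Ctrl replicate 1 was the lowest library in 28.2% and the highest in 26.4%, more often than any other library in either direction. It was also the deepest library. What set it apart was not tested.

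**Figure D3:**
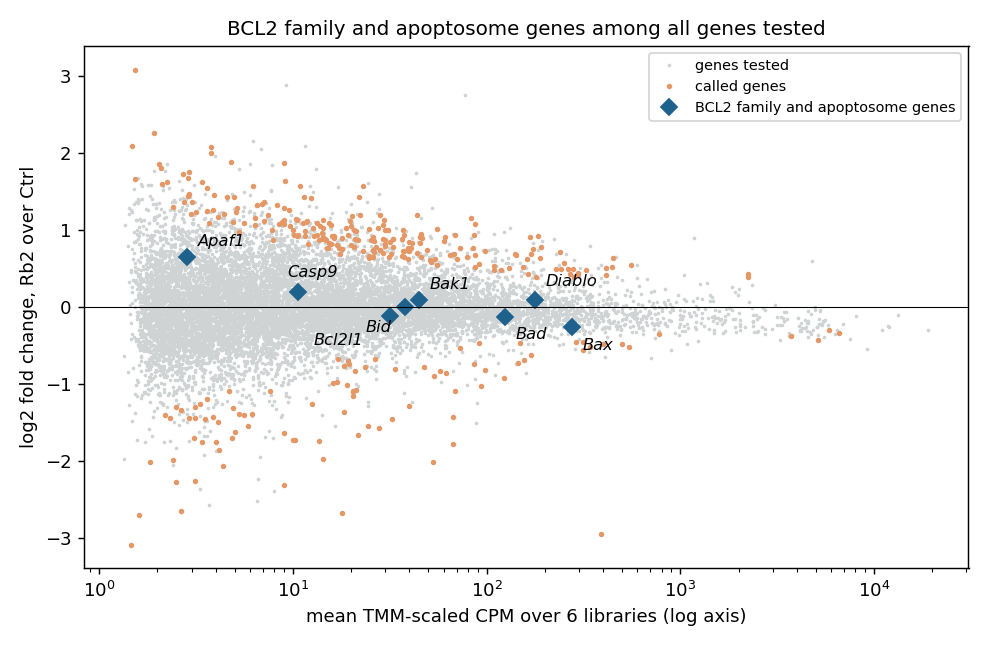
Log2 fold change of Rb2 over Ctrl (vertical axis) against the mean TMM-scaled CPM over 6 libraries (horizontal log axis) for 11551 genes, with the 312 genes past the threshold in orange and the 8 genes as blue diamonds. The 8 genes lie within the cloud of genes that did not pass; Apaf1, at the low end, is farthest from 0.

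Levels of different genes were compared per length, as TMM-scaled CPM per kilobase of the deposited gene length. Bax and Diablo were the most abundant of the 8, with 136 ± 1.34 and 134 ± 6.22 CPM per kilobase in Rb2 and 163 ± 12.8 and 127 ± 20.8 CPM per kilobase in Ctrl (SD, n = 3). Bad followed with 66.0 CPM per kilobase in Rb2 and 72.6 in Ctrl. Bak1 had 22.6 CPM per kilobase in Rb2 and 21.4 in Ctrl, and Bid had 15.0 in Rb2 and 15.1 in Ctrl. The survival gene Bcl2l1 came sixth, with 6.13 CPM per kilobase in Rb2 and 6.71 in Ctrl. The apoptosome genes came last, Casp9 with 3.68 CPM per kilobase in Rb2 and 3.22 in Ctrl, and Apaf1 with 0.57 in Rb2 and 0.37 in Ctrl. By these lengths the order was the same in both groups. Neighbours in it then did not overlap between libraries, except Bax and Diablo in Rb2. Division by length presumes short reads, and whether the reads were short is unsettled. Without it Bax and Diablo were apart in Rb2, at 248 to 253 CPM and 172 to 187 CPM. Bak1, Bid and Bcl2l1 then overlapped as neighbours in Ctrl, at 37.0 to 47.3, 29.8 to 43.2 and 28.8 to 36.3 CPM. The length used for Bax is 1842 bases, while its leading transcript Bax-201 has 831. For Bad these lengths are 1788 and 954 bases (ONT.851.6), and for Diablo 1357 and 1341 bases (ONT.4925.2). The order was not worked out with the lengths of leading transcripts, and it may differ with them. Among 8426 known genes tested, Bax ranked 610 by level per length in Rb2 and 524 in Ctrl, Bcl2l1 ranked 4089 in Rb2 and 3801 in Ctrl, and Apaf1 ranked 8033 in Rb2 and 8186 in Ctrl.

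Ratios of 2 genes within a library need no scaling between libraries, and 7 were compared over the samples by exact permutation (two-sided), whose smallest possible p is 0.1 with 3 samples in each group. The ratio of Bax to Bcl2l1 counts, effector over survival gene, was 7.79, 8.10 and 9.11 in Rb2, against 11.4, 8.37 and 7.92 in Ctrl. The groups overlapped (exact permutation p = 0.6, adjusted over the 7 ratios 0.70), and the high Ctrl mean came from replicate 1. Without that library the difference, Rb2 minus Ctrl, was 0.19 where it was -0.88 with all libraries.

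The ratio of Bax to Bak1, both effectors, was 4.80, 6.05 and 5.69 in Rb2, against 8.83, 6.24 and 6.08 in Ctrl. Each Rb2 value was under each Ctrl value, at the smallest p the design allows (exact permutation p = 0.1, adjusted 0.233). The ratio of Bax to Diablo was 1.34, 1.44 and 1.35 in Rb2, against 2.35, 1.497 and 1.55 in Ctrl, also without overlap at that p. Ctrl replicate 1 lay far above the other 2 Ctrl libraries in both ratios.

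The ratio of Bid to Bcl2l1 was 1.26, 1.24 and 1.28 in Rb2, against 1.04, 1.22 and 1.19 in Ctrl, with every Rb2 library higher and the same p of 0.1 (exact permutation, adjusted 0.233). Ratios of Bak1 to Bcl2l1, Bad to Bcl2l1 and Casp9 to Apaf1 overlapped between the groups (exact permutation p = 0.2, 0.9 and 0.3). None of the 7 ratios could pass an adjusted threshold of 0.05 in this design.

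**Figure D4:**
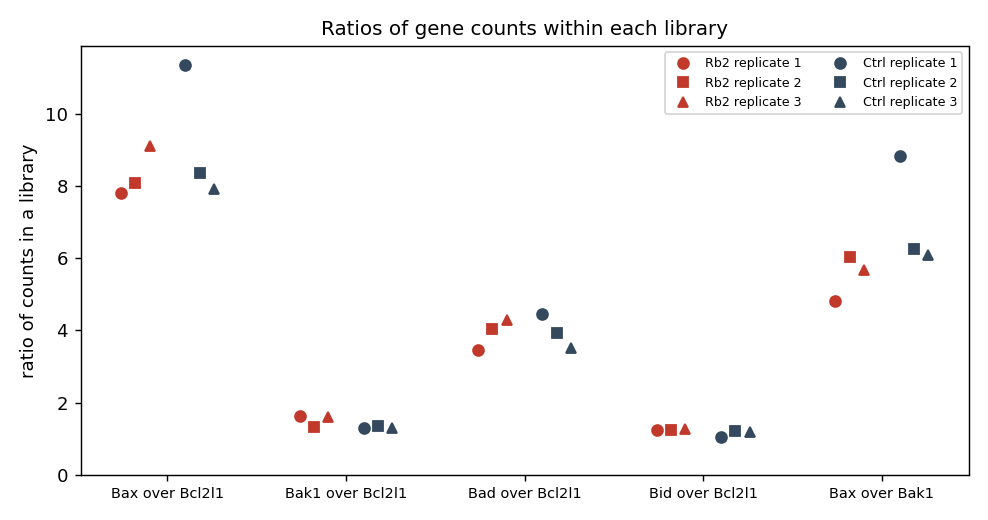
Ratio of the counts of 2 genes in the same library (vertical axis, from 0) for 5 of the 7 pairs compared, Rb2 left of Ctrl, each point 1 library. The ratios of Bax to Bak1 lie at 4.80 to 6.05 in Rb2 and at 6.08 to 8.83 in Ctrl, with Ctrl replicate 1 the highest; the Bax to Bcl2l1 values overlap.

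At the level of transcripts, 35 transcripts belong to the 8 genes, of which 12 are annotated and 23 are new models with identifiers that begin with ONT. Counts of 18 of them passed the filter. None was called, as none of 16679 transcripts was by edgeR's quasi-likelihood test. At an unadjusted p under 0.05 there was 1 of the 18, Bax-201, against 13.8% of all transcripts. DESeq2, which tested more transcripts, called 311 of 39897 and none of these genes' transcripts. Bax-201 had 235, 237 and 245 CPM in Rb2, against 317, 270.4 and 273 CPM in Ctrl. Its log2 fold change was -0.26 with an edgeR p of 0.0230 and an adjusted p of 0.282. It held 95.02% ± 0.86 of the counts of Bax in Rb2 and 94.8% ± 0.41 in Ctrl (SD, n = 3), so the values of the gene are nearly those of this transcript.

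Bak1, Casp9 and Apaf1 each had nearly all their counts in 1 annotated transcript, Bak1-201, Casp9-201 and Apaf1-201. Bad and Bcl2l1 were the opposite case. Annotated transcripts held 0.352% of the summed counts of Bad in Rb2 and 0.119% in Ctrl, and 0.394% of those of Bcl2l1 in Rb2 and 0.790% in Ctrl. For Bad the leading new model, ONT.851.6, held 62.2% ± 3.43 in Rb2 and 61.3% ± 1.70 in Ctrl, and ONT.851.4, ONT.851.1 and ONT.851.2 held most of the rest. For Bcl2l1 the leading model, ONT.12165.3, held 67.9% ± 2.93 in Rb2 and 67.2% ± 7.93 in Ctrl. Behind it, ONT.12165.5 held 23.7% ± 1.63 in Rb2 and 18.0% ± 4.84 in Ctrl, and ONT.12165.2 held 5.67% ± 3.61 in Rb2 and 10.3% ± 4.51 in Ctrl (SD, n = 3 each). Whether any of these models encodes the long or the short form of Bcl-x, which have opposite effects on survival, was not analysed here.

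Bid divided its counts between an annotated and a new transcript. Bid-201 held 55.3%, 49.5% and 51.8% of the counts of Bid in Rb2, against 33.3%, 54.6% and 51.4% in Ctrl. The new model ONT.13291.1 held 35.4%, 41.4% and 40.4% in Rb2, against 56.9%, 35.8% and 38.5% in Ctrl. In Ctrl replicate 1 the new model was the larger share, and in the other 5 libraries Bid-201 was.

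**Figure D5:**
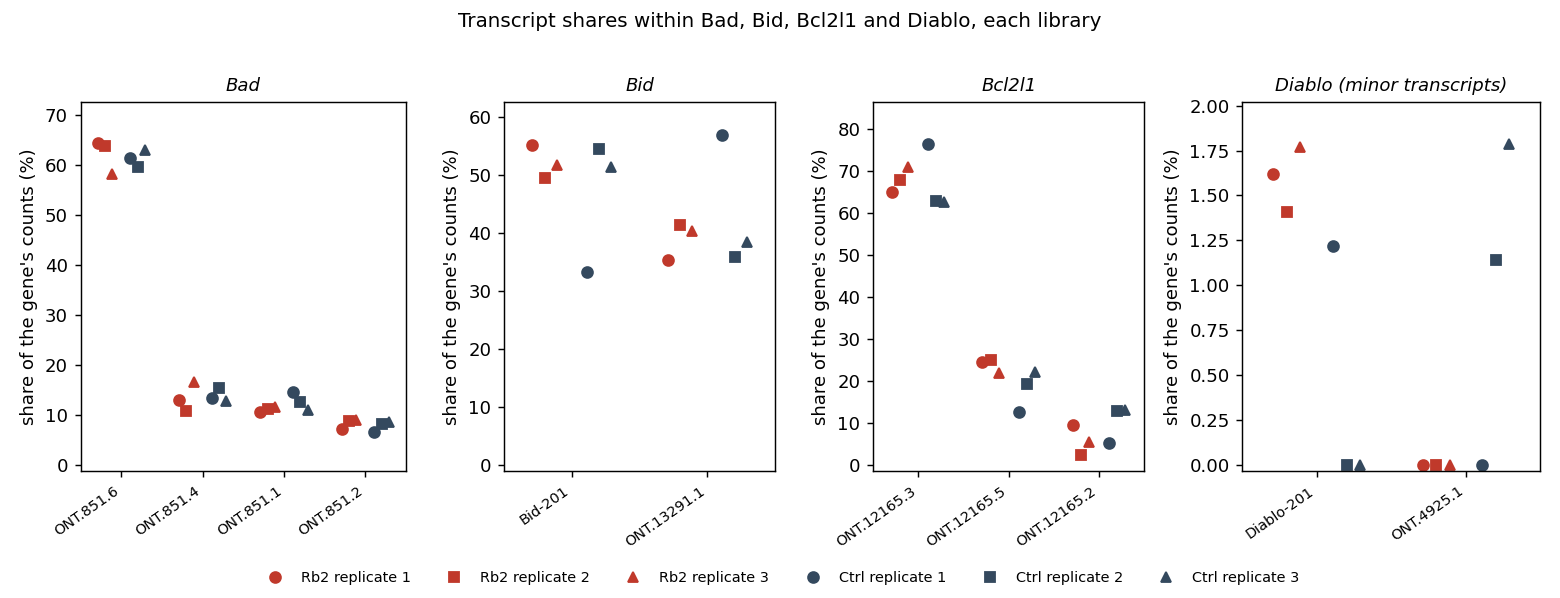
Share of the gene's counts held by the named transcripts of Bad, Bid and Bcl2l1 and by the 2 minor transcripts of Diablo (vertical axes, percent), Rb2 left of Ctrl within each transcript, each point 1 library. Ctrl replicate 1 departs from the other libraries for Bid, with 33.3% in Bid-201; for Diablo, ONT.4925.1 has counts in Ctrl replicates 2 and 3 only, where Diablo-201 is at 0.

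Diablo had over 98% of its counts in the new model ONT.4925.2, with 98.4% ± 0.18 in Rb2 and 98.5% ± 0.32 in Ctrl (SD, n = 3 each). Its 2 next transcripts took each other's place. Diablo-201, the annotated transcript of 1294 bases, had 17, 14 and 18 counts in Rb2, against 14, 0 and 0 in Ctrl. ONT.4925.1, of 1285 bases, had 0 counts in every Rb2 library, against 0, 12 and 19 in Ctrl. Summed, the pair had 17, 14 and 18 counts in Rb2, against 14, 12 and 19 in Ctrl, and each library had counts in 1 of the pair only. Ctrl replicate 1 was like the Rb2 libraries in this. A count of 0 allows up to 3 counts, for counting error only.

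Differences in usage, meaning in the transcripts' shares of their gene's counts, could be tested in Bax, Bad, Bid, Bcl2l1 and Diablo with diffSpliceDGE of edgeR. None of the 5 genes was called, and 0.417% of the 3361 genes tested for usage were. None of the 5 had an unadjusted Simes p under 0.05 either, against 3.36% of all genes tested for usage. Diablo had the smallest Simes p, 0.0756, with an adjusted p of 1.00 in diffSpliceDGE of edgeR. The gene-level F test of diffSpliceDGE gave Diablo an unadjusted p of 0.0377 and an adjusted p of 0.417. With no filter its unadjusted Simes p was 0.0261 and the adjusted one 0.702. Without Ctrl replicate 1 the Simes adjusted p of Diablo was 0.00275, which passes the threshold, so that call turned on whether this library was included. The change there lies in the minor pair, which held under 2% of the counts of Diablo in each library.

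Beyond the 8 genes, 66 other genes of apoptosis were listed in 8 groups, and 62 were matched, of which 47 were tested. By edgeR 1 was called, Bnip3l, higher in Rb2, where 1.9% of all genes tested were called higher. At an unadjusted p under 0.05, 11 were higher and 4 lower, which is 31.9% of the 47 genes, beside 20% of all genes tested. The median log2 fold change was 0.15 over the 47 genes, -0.016 over all genes and 0.037 over known genes, of which 21.8% had such a p. In 33 genes the fold change was above 0 and in 14 below. The lists were chosen with earlier results of these data known, so these shares are a description only. With sample quality weights, chosen after seeing the data, limma-voom called 7 of the 47, among them Usp9x, Traf2 and Pmaip1. Over all 11551 genes it called 995 higher and 668 lower. The number called by edgeR was 5 without Ctrl replicate 1, 3 without Ctrl replicate 3, and 0 without Ctrl replicate 2 or any 1 Rb2 library. Over all genes, edgeR called 605 higher and 291 lower of 11901 without Ctrl replicate 1. It called 433 and 211 of 12022 without Ctrl replicate 3, and 2 and 13 of 11976 without Ctrl replicate 2. Without Rb2 replicates 1, 2 and 3 in turn it called 25, 0 and 1 higher, and 14, 3 and 10 lower. The number among the 47 thus rose and fell with that over all genes.

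Bnip3l, an atypical BH3 protein of the mitochondrial surface also known as Nix that serves as a mitophagy receptor, had 46.5, 44.4 and 46.4 CPM in Rb2, against 27.5, 29.3 and 31.1 CPM in Ctrl. It was higher in 3 of 3 Rb2 libraries, with a log2 fold change of 0.64 (SE 0.12, interval 0.37 to 0.92; edgeR adjusted p = 0.0365). The call was lost when any 1 Rb2 library was left out (edgeR adjusted p = 0.130, 0.189 and 0.170 without replicates 1, 2 and 3) and without Ctrl replicate 2 (0.146), while the log2 fold change stayed at 0.63 to 0.67. With the replicate number as a block the call was lost too (edgeR adjusted p = 0.0857). Over 19 alternatives the fold change was above 0 and the adjusted p lay between 0.00205 and 0.189. Its relative Bnip3 had 90.2, 91.9 and 84.8 CPM in Rb2, against 47.0, 84.8 and 94.7 CPM in Ctrl, with Ctrl replicate 1 alone at the low end (chosen after its values were seen).

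Among proteins that act on Bad, Mcl-1 or the apoptosome, 11 of 16 listed genes were tested, and edgeR's test with all libraries called none. At an unadjusted p under 0.05, 6 were higher in Rb2 and 1 was lower, which is 63.6% of the 11, beside 20% of all genes and 21.8% of known genes tested. Among the 6 were Ywhae, Ywhah, Ywhaq and Ywhaz, all genes of the 14-3-3 family. The list was chosen with earlier results of these data known, so its share is a description only. Usp9x, a deubiquitinase known to stabilise Mcl-1, had 2.49, 3.47 and 2.58 CPM in Rb2, against 1.33, 0.904 and 1.05 CPM in Ctrl. These values rest on low counts, 14, 20 and 14 in Rb2, against 11, 5 and 6 in Ctrl. Usp9x had a log2 fold change of 1.33, and its edgeR adjusted p of 0.0655 missed the threshold in the main test and passed it in 5 of 19 alternatives. Ywhae, a 14-3-3 gene and the most abundant of the list by CPM, had 311, 307 and 292 CPM in Rb2, against 244, 259.5 and 278 CPM in Ctrl (log2 fold change 0.22; edgeR adjusted p = 0.198). The 14-3-3 genes Ywhah, Ywhaq and Ywhaz, chosen after their values were seen, also had Rb2 libraries that lay above the Ctrl libraries, with log2 fold changes of 0.48, 0.56 and 0.31 (edgeR adjusted p = 0.0793, 0.190 and 0.189). Of 19 alternatives, Ywhah passed the threshold in 6 and Ywhaq in 3. Ywhab, at a log2 fold change of 0.12, overlapped between the groups. Ywhag overlapped too, with 106, 98.3 and 87.2 CPM in Rb2, against 154, 99.8 and 95.2 CPM in Ctrl, with Ctrl replicate 1 alone at the high end (log2 fold change -0.26). Genes of this family have close copies, between which the authors' counting could split reads.

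Among other effectors and BH3-only genes, 4 were tested and edgeR's test with all libraries called none. Pmaip1, which encodes Noxa, a BH3-only partner of Mcl-1, had 35.2, 33.4 and 26.7 CPM in Rb2, against 14.1, 21.1 and 25.3 CPM in Ctrl. Its log2 fold change was 0.67 (edgeR adjusted p = 0.131), and the lowest Rb2 library was close to the highest Ctrl library. Bok, a relative of Bax, had means of 81.5 ± 6.42 CPM in Rb2 and 79.4 ± 11.7 CPM in Ctrl (SD, n = 3 each). Of the other survival genes Bcl2l2 alone was tested, with 7.12, 6.59 and 5.52 CPM in Rb2, against 11.2, 6.87 and 9.96 CPM in Ctrl (log2 fold change -0.55; edgeR adjusted p = 0.244). Its counts were 40, 38 and 30 in Rb2, against 92, 38 and 57 in Ctrl. Bcl2 had 0 or 1 count in every library, and Bcl2a1 had at most 5, so Bcl2l1 was the survival gene with the most counts among those analysed here.

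Genes of released factors and of inhibitors of apoptosis were tested in 6 of 9 cases, and edgeR called none. Birc2, an inhibitor of apoptosis that Smac binds, had 23.7, 23.9 and 20.8 CPM in Rb2, against 15.4, 18.3 and 17.3 CPM in Ctrl (log2 fold change 0.43; edgeR adjusted p = 0.157). Birc5, or survivin, had means of 166 ± 12.3 CPM in Rb2 and 187 ± 15.6 CPM in Ctrl (SD, n = 3 each). Xiap had 0 or 1 count in every library. Cycs, which encodes cytochrome c, also had 0 or 1 count, and its level is uncertain because rodent genomes hold many near-identical copies of it.

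Of 8 tested caspases and their substrates, edgeR called none. Acin1, a caspase substrate and the most abundant of the list by CPM, had means of 169.6 ± 7.39 CPM in Rb2 and 164 ± 11.6 CPM in Ctrl (SD, n = 3 each).

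Among genes of the mitochondrial membranes, 6 were tested and edgeR called none. Vdac2, a channel of the outer membrane that binds Bak, had means of 367 ± 16.8 CPM in Rb2 and 383 ± 22.5 CPM in Ctrl (SD, n = 3 each). Opa1, which shapes the inner membrane and holds cristae closed, had 5.52, 5.72 and 7.73 CPM in Rb2, against 3.15, 4.70 and 3.84 CPM in Ctrl (log2 fold change 0.71; edgeR adjusted p = 0.160). Its counts were 31, 33 and 42 in Rb2, against 26, 26 and 22 in Ctrl. In the death receptor list 7 genes were tested, and edgeR with all libraries called none. Traf2, an adaptor of TNF receptors, had 30.6, 26.0 and 25.0 CPM in Rb2, against 34.1, 37.4 and 36.3 CPM in Ctrl (log2 fold change -0.40; edgeR adjusted p = 0.146). Tnfrsf1a, the main TNF receptor, had means of 74.7 ± 5.97 CPM in Rb2 and 65.7 ± 10.7 CPM in Ctrl (SD, n = 3 each).

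Genes whose pattern over the 6 libraries was most like that of Bax and of Apaf1 were found by the root mean square difference of mean-centred log2 CPM. For Bax they were Tbxa2r, the thromboxane receptor gene, at 0.026, Tspo, a protein of the outer mitochondrial membrane, at 0.033, and Trappc2l, a vesicle tethering factor, at 0.035. The median over 6544 genes was 0.270 on the same log2 scale. For Apaf1 they were Ube2q2l at 0.109, Opa1 at 0.114 and Rnaseh2b, a subunit of ribonuclease H2, at 0.133, with a median of 0.407 over 6545 genes. None of these 6 genes was called between Rb2 and Ctrl by edgeR. They were chosen for likeness to Bax and Apaf1, which were not called, so this adds no separate result.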

How the data were processed

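The authors deposited whole-number counts for 24360 genes and 44501 transcripts, which are the values used here. A deposited CPM table equals the count over its column total, rescaled, and served for alternatives only. The submitters' processing notes name HISAT2, DESeq2 and a mouse build, mm10, while known genes carry rat identifiers, so no coordinates are given. The labels describe a short-read kit and the new models begin with ONT, so the read type is unsettled, which limits what transcript shares mean. Which counter and annotation were used is not given in the sources used here. For each table, 18 further per-sample columns matched no sample and were not used.

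The tests used edgeR 4.0.16 under R 4.3.3 (TMM, filterByExpr, robust quasi-likelihood fit, group as the only term), and p-values were adjusted by Benjamini-Hochberg over all features tested. An adjusted p under 0.05 was a call. Standard errors are the fold change over the root of F. Transcript usage was tested with diffSpliceDGE of edgeR where 2 or more transcripts of a gene passed the filter. The fits and intervals were tested on simulated data. The gene test recovered 0% of changes of 1.25-fold, 12% of 1.5-fold, 40% of 2-fold and 88% of 4-fold. The transcript test recovered 4% of 2-fold and 40% of 4-fold changes, and the usage test 17% of 4-fold changes. The intervals covered 95.1% for genes and 95.6% for transcripts. So where none was called, changes may have been missed, most of all in transcripts and usage. Likeness used CPM plus 0.5 and known genes with a mean of at least 5 CPM.

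The genes and lists were chosen with earlier results of these data known. Named were all genes of the set, each called gene of the other lists, or, with none called, the most abundant and the one with the smallest p, transcripts with at least 5% of their gene, and the 3 genes most like the 2 with the smallest p. Values of some genes that this rule names are not reported here. Alternatives were RLE and upper-quartile factors, library size only, no filter, a mean count of at least 10, DESeq2 1.42.0, limma-voom (limma 3.58.1), limma on log2 of CPM plus 1 or 0.1, a length offset, known genes only, the replicate number as a block, each library left out and, added after seeing the data, sample quality weights.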

Additional observations from a re-analysis of the deposited data

How the results depend on the processing

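No call was made for any of the 8 genes in 19 alternatives or for their transcripts in 15. The number of other apoptosis genes called, 1 in the edgeR test, was 3 with library size only, 2 with no filter, 2 with DESeq2, 4 with limma on log2 of CPM plus 1, 4 with CPM plus 0.1, 7 with sample quality weights (chosen after seeing the data) and 0 to 5 with 1 library left out, 5 being without Ctrl replicate 1. With the replicate block it was 0 (Bnip3l: adjusted p = 0.0857). The labels do not say whether same-numbered libraries are paired. Their deviations from group means had correlations of -0.069, -0.067 and -0.011, which cannot decide this with 3 libraries in each group. Under the block 12 genes were higher and 21 lower, against 219 and 93 without it. Usage calls among the 8 genes were 0 to 1 with 1 library left out. Over all genes, 463 were higher and 80 lower with library size only, which moved the median log2 fold change to 0.096, and 135 and 92 with upper-quartile factors. Without Ctrl replicates 1, 2 and 3 in turn 605, 2 and 433 were higher, and without Rb2 replicates 1, 2 and 3, 25, 0 and 1. With no filter 386 were higher and 150 lower, with DESeq2 330 and 88, and with sample quality weights 995 and 668. For limma on log2 of CPM the numbers were 514 and 87 with CPM plus 1, and 480 and 79 with CPM plus 0.1.

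Values near 0 changed sign, and the cause was not tested. The log2 fold change of Bid was 0.11 with library size only, 0.020 with no filter, 0.0020 with a mean count of at least 10, 0.011 with DESeq2, 0.032 with limma-voom, 0.011 with the replicate block, 0.12 with CPM plus 1 and 0.12 with CPM plus 0.1. Vdac2 was at 0.053 with library size only, 0.055 with CPM plus 1 and 0.055 with CPM plus 0.1. Bok was at -0.0071 with upper-quartile factors, -0.039 with the length offset, -0.0022 with known genes only and -0.044 with quality weights. With quality weights Bak1 was at -0.024, Diablo at -0.036 and Acin1 at -0.017. With the length offset Acin1 was at -0.084 and Bak1-201 at -0.017. With library size only ONT.851.2 was at 0.077 and ONT.12165.3 at 0.0056. With 1 library left out the ranges were -0.014 to 0.17 for Bak1, -0.14 to 0.11 for Bid, -0.031 to 0.17 for Diablo, -0.058 to 0.13 for Bok, -0.021 to 0.16 for Bak1-201, -0.16 to 0.096 for ONT.851.2, -0.18 to 0.31 for Bid-201, -0.021 to 0.52 for ONT.12165.5 and -0.052 to 0.16 for ONT.4925.2. The difference of the ratio to Bcl2l1 ran from -1.53 to 0.19 for Bax and from -0.26 to 0.21 for Bad. Depth limits Apaf1 and Casp9 most, with at most 71 counts in a library.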

Other observations

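Casp6, which encodes an executioner caspase, had 24 counts in Rb2 replicate 2 and 0 in the other 5 libraries, so it was not tested. Akt1, a kinase that phosphorylates Bad, had 49.1, 43.3 and 44.7 CPM in Rb2, against 100.1, 53.0 and 54.3 CPM in Ctrl, with Ctrl replicate 1 apart from the other Ctrl libraries (log2 fold change -0.60, unadjusted p = 0.0344, edgeR adjusted p = 0.209). Hsp90aa1, a chaperone reported to act on the apoptosome, had 71.4, 81.5 and 54.5 CPM in Rb2, against 53.5, 35.6 and 33.2 CPM in Ctrl. It missed the threshold in the edgeR test with all libraries (adjusted p = 0.0894) and passed it in 6 of 19 alternatives, among them DESeq2 with all libraries (adjusted p = 0.0165) and edgeR without Ctrl replicate 1 (adjusted p = 0.00427). Both genes were chosen after their values were seen.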
